A study of Homo sapiens with 9 samples.

Results

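To describe the transforming growth factor beta (TGF-beta) pathway in xenografts given antibody-drug conjugates, 10 genes were followed in 9 RNA-Seq libraries: the ligand genes TGFB1, TGFB2 and TGFB3, the receptor genes TGFBR1 and TGFBR2, the feedback genes SMAD7 and SKIL, the activin A subunit gene INHBA, the TGF-beta target TGFBI and CILP, which encodes an extracellular antagonist of TGF-beta. The genes were selected by symbol, and all 10 were present among the 16008 genes listed in both count tables and passed the filter on low counts in every comparison. Per the tables TGFB2 lies on chromosome 1, TGFBR2 and SKIL on chromosome 3, TGFBI on chromosome 5, INHBA on chromosome 7, TGFBR1 on chromosome 9, TGFB3 on chromosome 14, CILP on chromosome 15, SMAD7 on chromosome 18 and TGFB1 on chromosome 19. The list was drawn up with the fold changes of these data against vehicle already known. Differences from vehicle are therefore given as descriptions without a p-value. Where one of the 10 genes is said to be called against PBS, this gives its place in the fit across all genes and is no evidence about the set, and only the difference between the conjugates is read as a test.

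The tumors were grown subcutaneously from PC3, a human prostate cancer cell line from a bone metastasis, in male NSG mice (11 weeks old per the series record), which lack T, B and natural killer cells but keep fibroblasts, vessels and macrophages. The 3 PBS libraries came from mice given vehicle, and the 3 P-DXd-titled and 3 T-DXd-titled libraries from mice given a conjugate at 5 mg/kg, weekly for 5 cycles from a tumor volume of 90 mm3 per the series record. The study's methods name tumors of the 5 mg/kg experiment for RNA-Seq but give that experiment another age of the mice, starting volume and number of cycles. The age, volume and cycles of the record are those the methods give for a separate T-DXd experiment at a higher dose. Which schedule holds for these libraries is therefore unsettled. Patritumab deruxtecan (P-DXd) binds HER3, trastuzumab deruxtecan (T-DXd) binds HER2, and the payload of both is deruxtecan, a topoisomerase I inhibitor. Titles and treatment fields name opposite conjugates for each of the 6 treated libraries, so groups are called by title, and all 6 treated libraries were also compared with PBS together, which holds under either record.

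TGF-beta ligands are secreted as latent complexes and, once released, bring together a type II receptor (TGFBR2) and a type I receptor (TGFBR1) that phosphorylates SMAD2 and SMAD3. Activins, dimers of inhibin beta subunits, use related receptors and the same SMADs. SMAD7 and the SKIL product, SnoN, act as negative feedback on this signal. In epithelial tumors the pathway is known both for arresting growth and for inducing matrix and mesenchymal genes.

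Total counts were 54481702 to 125538606 per library, the 3 PBS libraries being the deepest. PBS replicate 1 stood apart from the other 2 PBS libraries for several of the 10 genes, and P-DXd-titled replicate 2 carried a high level of skeletal muscle genes (14 markers summing to 4582 CPM, against 20.2 to 306 CPM in the other 8 libraries; CPM are read counts scaled to library size). For the PC3 label, 6 PC3 and epithelial markers were read, KRT8, KRT18, KRT19, EPCAM, CDH1 and the mesenchymal gene VIM. As these are not particular to PC3, they cannot tell it from other epithelial tumor cells. All 6 were listed, with summed levels of 1935 to 4021 CPM and KRT8 the highest. Mouse reads that map to human genes were not set apart in the tables, and in bulk libraries fewer cells of a type and less RNA per cell cannot be told apart.

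Promoters of 3 of the genes are shown because they are the genes with the largest differences from PBS in each direction (CILP and TGFBI) and the one whose start window held both a cyclic AMP response element and a GC-rich SMAD site (SKIL). Each covers 250 bases before to 50 bases after a RefSeq start on GRCh38.p14 and reads 5′ to 3′ on the gene's strand, with motif matches in capitals. CILP lies on the minus strand at chr15:65211424-65211723, TGFBI on the plus strand at chr5:136028738-136029037 and SKIL on the plus strand at chr3:170357465-170357764.
CILP: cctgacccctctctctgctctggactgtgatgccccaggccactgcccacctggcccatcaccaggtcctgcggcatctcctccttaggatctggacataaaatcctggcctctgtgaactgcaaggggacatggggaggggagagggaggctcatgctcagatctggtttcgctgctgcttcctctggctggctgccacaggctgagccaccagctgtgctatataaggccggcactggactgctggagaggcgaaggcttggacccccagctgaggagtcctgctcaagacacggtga
TGFBI: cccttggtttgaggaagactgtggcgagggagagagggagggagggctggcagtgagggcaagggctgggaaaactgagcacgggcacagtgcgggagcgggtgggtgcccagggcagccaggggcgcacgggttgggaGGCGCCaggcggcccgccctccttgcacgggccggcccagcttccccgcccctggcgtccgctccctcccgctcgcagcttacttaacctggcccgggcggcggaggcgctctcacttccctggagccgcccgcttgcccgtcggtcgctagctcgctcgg
SKIL: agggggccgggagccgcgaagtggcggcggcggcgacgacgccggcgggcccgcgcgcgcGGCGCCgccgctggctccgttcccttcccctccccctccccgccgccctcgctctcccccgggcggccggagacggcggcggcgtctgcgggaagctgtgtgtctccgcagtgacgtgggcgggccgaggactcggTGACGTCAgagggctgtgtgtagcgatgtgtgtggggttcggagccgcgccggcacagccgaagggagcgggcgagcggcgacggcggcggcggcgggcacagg

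These windows were searched on both strands for the SMAD palindrome GTCTAGAC, the CAGA element CAGACA, the cyclic AMP response element TGACGTCA, the AP-1 site TGAGTCA and the GC-rich SMAD site GGCGCC, none of which contains another. They occurred in 0.203%, 16.9%, 1.84%, 4.96% and 19.2% of 34943 RefSeq promoters of the same length. The CILP window held none of the 5. The TGFBI window held GGCGCC 111 bases before the start, and the SKIL window held GGCGCC 190 bases and TGACGTCA 54 bases before it. All 10 genes matched a RefSeq promoter, with 21 start windows in all, and 6 genes had a match in 8 of these windows. CAGACA or its complement was found in windows of INHBA, TGFB2 and TGFBR1, GGCGCC also in a window of TGFBR1, and TGAGTCA in a window of TGFBR2. GC content was 61% in the CILP window, 72.7% in that of TGFBI and 79% in that of SKIL, compared with a median of 58.7% over all promoters (quartiles 47% and 68%). A match is a description of the letters and not evidence of a bound site.

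The 3 ligand genes differed from PBS in different directions. TGFB1 encodes the isoform most widely expressed in adult tissue. Its level was 90.1, 86.0 and 91.0 CPM in PBS replicates 1 to 3 (89.0 ± 2.64, mean ± SD, n = 3), 62.2, 73.5 and 76.6 CPM in the P-DXd-titled libraries in the same order (70.7 ± 7.59), and 63.1, 64.6 and 71.4 CPM in the T-DXd-titled ones (66.4 ± 4.46). All 6 treated libraries lay below all 3 PBS libraries, with a log2 fold change of -0.38 (SE 0.08) in the treated libraries together. TGFB1 overlaps CCDC97, HNRNPUL1 and TMEM91 in the listed coordinates, so reads in the shared part are uncertain.

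TGFB2, whose latent form lacks the RGD motif that integrins bind in the other isoforms, was at 141, 232.7 and 255.9 CPM in PBS (209.9 ± 60.8, n = 3), 338.6, 293.7 and 273.4 CPM in the P-DXd-titled (301.9 ± 33.3) and 317.4, 276.6 and 282.4 CPM in the T-DXd-titled libraries (292.2 ± 22.1). The treated libraries were all above the PBS libraries, but the lowest treated library was close to the highest PBS library and PBS replicate 1 was well below the other 2. The log2 fold change of treated libraries was 0.50 (SE 0.16), 0.29 without PBS replicate 1 and 0.67, then called, without PBS replicate 3.

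TGFB3, the isoform known for its part in palate formation and wound repair, was at 18.2, 20.7 and 21.6 CPM in PBS (20.2 ± 1.75, n = 3), 37.8, 55.0 and 49.0 CPM in the P-DXd-titled (47.2 ± 8.74) and 45.4, 41.1 and 40.9 CPM in the T-DXd-titled libraries (42.5 ± 2.54). Every treated library was clearly above every PBS library. The log2 fold change was 1.24 (SE 0.16) for P-DXd-titled, 1.08 (SE 0.10) for T-DXd-titled and 1.15 (SE 0.12) in all treated libraries, a 2.22-fold higher level. TGFB3 overlaps IFT43 in the listed coordinates. 

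**Figure D1:**
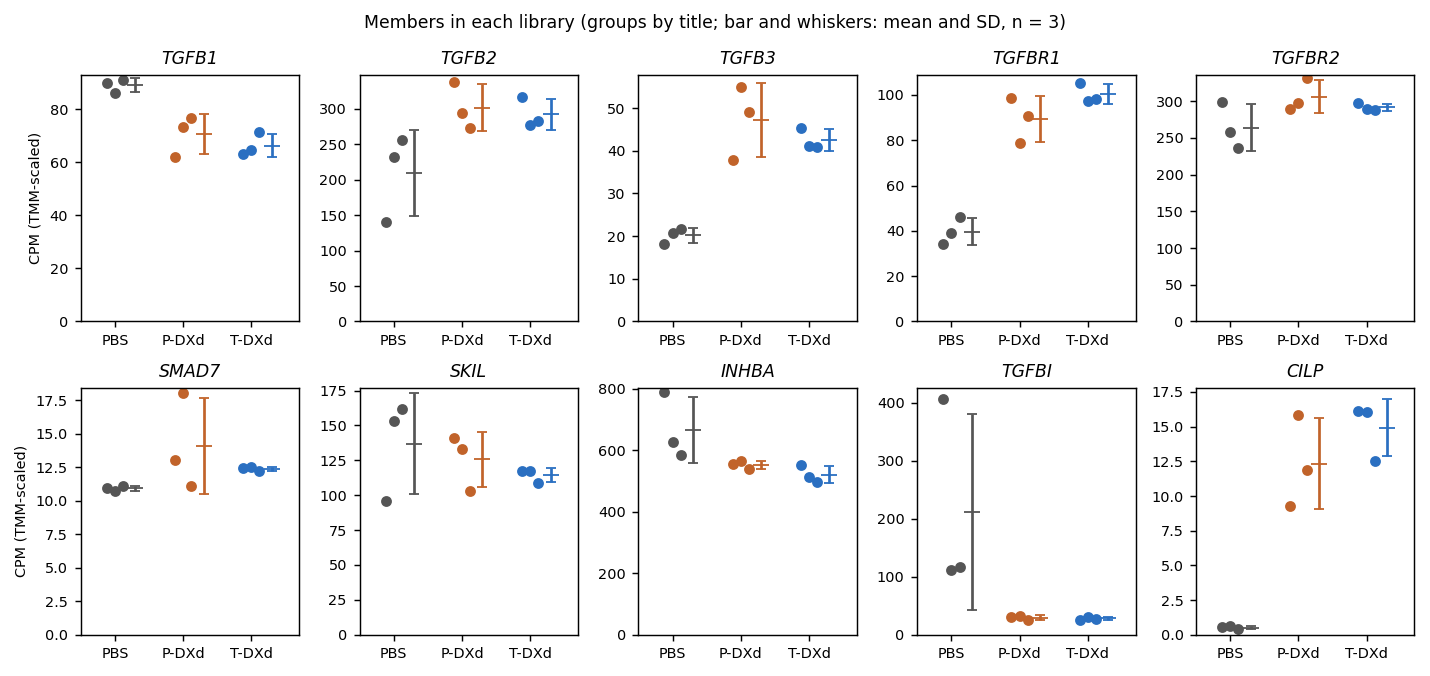
Level of each of the 10 genes in CPM (TMM-scaled, vertical axes from 0) in each library, with dots for libraries of the PBS, P-DXd-titled and T-DXd-titled groups and the mean and SD (n = 3) beside them. CILP lies at or below 0.601 CPM in PBS and at or above 9.30 CPM in treated libraries, TGFBI shows 1 high PBS library at 406.3 CPM, and TGFBR2 and SKIL overlap between PBS and treated libraries.

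Comparing isoforms needs levels per length, given here as CPM per kilobase of the union of exons. Of the summed level of the 3 isoforms, TGFB2 took 51.9% ± 7.86, TGFB1 42.2% ± 7.42 and TGFB3 5.92% ± 0.445 in PBS (SD, n = 3). In P-DXd-titled libraries the shares were 61.8% ± 5.45, 26.9% ± 3.50 and 11.2% ± 2.16, and in T-DXd-titled libraries 62.9% ± 2.097, 26.5% ± 2.34 and 10.6% ± 0.299. TGFB2 was thus the leading isoform in 8 of 9 libraries. The exception was PBS replicate 1, with 50.7% TGFB1 and 42.8% TGFB2.

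INHBA encodes the inhibin beta A subunit, which forms activin A. Its level was 788, 626 and 585.3 CPM in PBS (666.5 ± 107.2, n = 3), 555.5, 564.1 and 538.6 CPM in the P-DXd-titled (552.7 ± 13.01) and 551.8, 513.5 and 497.4 CPM in the T-DXd-titled libraries (520.9 ± 28.0). All treated libraries were below all PBS libraries, with a log2 fold change of -0.31 (SE 0.093) in the treated libraries together. Without PBS replicate 1, the highest library, it was -0.17.

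The 2 receptor genes showed unequal differences. TGFBR1, the type I receptor kinase, was at 34.2, 38.9 and 45.9 CPM in PBS (39.7 ± 5.89, n = 3), 98.5, 78.7 and 90.6 CPM in the P-DXd-titled (89.3 ± 10) and 105.4, 97.2 and 98.2 CPM in the T-DXd-titled libraries (100.3 ± 4.48). Treated and PBS libraries did not overlap, and the log2 fold change was 1.18 (SE 0.14), 1.34 (SE 0.12) and 1.26 (SE 0.11) in P-DXd-titled, T-DXd-titled and all treated libraries, the last a 2.39-fold higher level.

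TGFBR2, the type II receptor that binds the ligand, was at 298.4, 258.1 and 235.5 CPM in PBS (264 ± 31.8, n = 3), 288.7, 297 and 331.2 CPM in the P-DXd-titled (305.6 ± 22.5) and 297.4, 289 and 287.9 CPM in the T-DXd-titled libraries (291.4 ± 5.19). PBS replicate 1 lay above 5 of the 6 treated libraries, so the groups overlapped, and the log2 fold change of treated libraries was 0.18 (SE 0.083). The ratio of TGFBR2 to TGFBR1, both in CPM per kilobase, was 10.2, 7.74 and 5.98 in PBS libraries, 3.42, 4.40 and 4.26 under the P-DXd title and 3.29, 3.47 and 3.42 under the T-DXd title. The type II receptor gene was the higher in every library, and each treated library had a lower ratio than each PBS library.

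**Figure D2:**
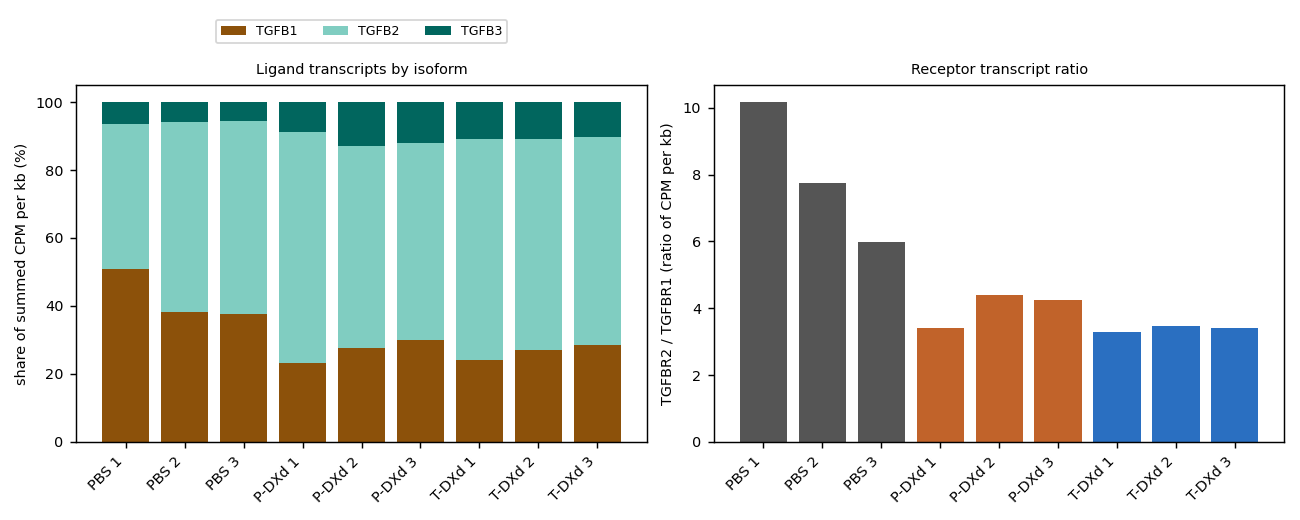
Left, share of TGFB1, TGFB2 and TGFB3 in their summed CPM per kilobase in each library (stacked bars, %); right, ratio of TGFBR2 to TGFBR1 in CPM per kilobase in each library (bars from 0), with P-DXd and T-DXd standing for the titled groups. TGFB2 is the larger share except in PBS replicate 1, and the receptor ratio is 5.98 to 10.2 in PBS and 3.29 to 4.40 in treated libraries.

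The feedback genes differed little from PBS. SMAD7 encodes the inhibitory SMAD that is itself induced by TGF-beta and competes at the type I receptor. Its level was 11.0, 10.7 and 11.1 CPM in PBS (10.9 ± 0.161, n = 3), 13.1, 18.0 and 11.1 CPM in the P-DXd-titled (14.1 ± 3.57) and 12.4, 12.5 and 12.2 CPM in the T-DXd-titled libraries (12.4 ± 0.15). The treated libraries were all above the PBS libraries, P-DXd-titled replicate 3 by a narrow margin (11.12 CPM against 11.06 CPM in PBS replicate 3). P-DXd-titled replicate 2, the library with high skeletal muscle genes, was the highest. The log2 fold change against PBS was 0.38 (SE 0.19) in P-DXd-titled libraries and 0.17 without that library, and 0.18 (SE 0.11) in T-DXd-titled libraries.

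SKIL was at 95.7, 153.4 and 162 CPM in PBS (137 ± 36.1, n = 3), 140.8, 132.9 and 103.1 CPM in the P-DXd-titled (125.6 ± 19.9) and 117.6, 117.7 and 108.6 CPM in the T-DXd-titled libraries (114.6 ± 5.26). PBS replicate 1 was the lowest of all 9 libraries and PBS replicates 2 and 3 the highest, so the treated libraries lay within the PBS range. The log2 fold change of treated libraries was -0.19 (SE 0.16).

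TGFBI encodes an RGD-containing matrix protein named for its induction by TGF-beta, and was the member farthest below PBS. It was at 406.3, 111.7 and 116.9 CPM in PBS (211.6 ± 168.6, n = 3), 29.9, 32.9 and 25.04 CPM in the P-DXd-titled (29.3 ± 3.98) and 25.7, 31.4 and 26.9 CPM in the T-DXd-titled libraries (28.0 ± 3.01). All treated libraries were far below all PBS libraries, and PBS replicate 1 was far above the other 2. The log2 fold change was -2.84 (SE 0.52), -2.91 (SE 0.53) and -2.88 (SE 0.34) in P-DXd-titled, T-DXd-titled and all treated libraries, the last a 7.38-fold lower level. Without PBS replicate 1 these were -1.96, -2.03 and -1.99.

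CILP, cartilage intermediate layer protein, is a matrix protein of cartilage known to bind TGF-beta1 and to restrain its signal. It was at 0.568, 0.601 and 0.392 CPM in PBS (0.520 ± 0.113, n = 3), 9.30, 15.9 and 11.9 CPM in the P-DXd-titled (12.3 ± 3.30) and 16.2, 16.1 and 12.6 CPM in the T-DXd-titled libraries (14.9 ± 2.05). These levels rested on 50, 77 and 44 counts in PBS replicates 1 to 3 and on 780 to 1193 counts in treated libraries, although the PBS libraries were deeper. No treated library came near the PBS libraries. The log2 fold change was 4.58 (SE 0.30) for P-DXd-titled, 4.84 (SE 0.24) for T-DXd-titled and 4.71 (SE 0.26) in all treated libraries, a 26.1-fold higher level.

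Markers of other cells were read beside CILP, a gene of connective tissue. Of 12 cartilage and tendon markers, 8 were listed, ACAN, COMP, TNMD and SCX were not, and the summed level was 127 to 153 CPM in the PBS, 141 to 157 CPM in the P-DXd-titled and 137 to 145 CPM in the T-DXd-titled libraries, mostly from SOX9. The sum hides differences within the list. Of the 8 markers, 1 rose and 3 fell in treated libraries against PBS, with a median log2 of -0.62. All 19 fibroblast markers were listed, with sums of 2550 to 2645 CPM in the PBS, 2348 to 3370 CPM in the P-DXd-titled and 3292 to 3544 CPM in the T-DXd-titled libraries and COL1A1 the highest. Of the 18 fibroblast markers tested in treated libraries against PBS, 8 rose and 1 fell, with a median log2 of 0.53. The marker that fell was COL6A3 (159.6 to 13.3 CPM). In P-DXd-titled libraries alone 2 of the 18 rose and 1 fell, and in T-DXd-titled libraries 7 rose and 1 fell. Sums of 10 of 15 macrophage markers, led by CSF1R, were 9.32 to 12.1, 20.7 to 30.3 and 31.5 to 41.8 CPM; CD163, MRC1, TYROBP, C1QA and C1QC were not listed. Of the 9 macrophage markers tested in treated libraries against PBS, 5 rose and 2 fell, the latter being EMR1 (2.54 to 1.06 CPM) and MSR1 (1.41 to 0.575 CPM). Sums of 9 of 11 endothelial markers, led by TEK and without PECAM1 and EMCN, were 6.25 to 14.3, 7.62 to 13.3 and 11.4 to 11.6 CPM, and those of 14 of 14 skeletal muscle markers, led by ACTA1, were 20.2 to 69, 116 to 4582 and 249 to 304 CPM. The 6 PC3 and epithelial markers summed to 1935 to 2695 CPM in the PBS and 3454 to 4021 CPM in the 6 treated libraries. Of these 6, 2 rose and 0 fell in treated libraries against PBS, and VIM had means of 322.5 CPM in PBS and 330.4 CPM in treated libraries. The sums of macrophage markers, of muscle markers and of PC3 and epithelial markers were thus higher in every treated library than in every PBS library, as were CILP, TGFB3 and TGFBR1. The part of these markers in the differences of CILP, TGFB3 and TGFBR1 was not tested. The muscle sum of P-DXd-titled replicate 2 was far above all others. CILP there (15.9 CPM) was the highest of the P-DXd-titled libraries and within the range of the T-DXd-titled libraries. In P-DXd-titled replicates 1, 3 and 2 the muscle sum was 116, 306 and 4582 CPM and CILP 9.30, 11.9 and 15.9 CPM. Whether the 2 are related was not tested.

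**Figure D3:**
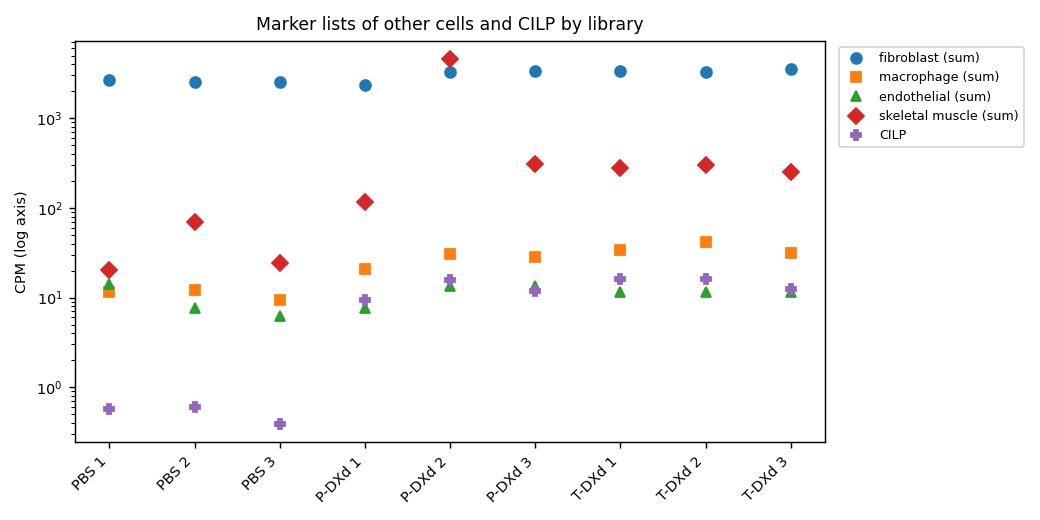
Summed CPM of fibroblast, macrophage, endothelial and skeletal muscle markers, and CPM of CILP, in each library on a log axis, with P-DXd and T-DXd standing for the titled groups. Skeletal muscle markers reach 4582 CPM in P-DXd-titled replicate 2, and CILP is between 9.30 and 16.2 CPM in all 6 treated libraries.

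Calls required a Benjamini-Hochberg p no higher than 0.05 together with a difference of 1.5-fold or more. The shares of all genes called are given for scale, with nothing read from them about genes selected on these contrasts. In P-DXd-titled libraries compared with PBS, 4 of the 10 genes were called, 3 higher (TGFB3, TGFBR1 and CILP) and 1 lower (TGFBI), beside 25.0% of 14945 genes tested, 11.2% higher and 13.8% lower. In T-DXd-titled libraries the same 4 genes were called in the same directions, beside 28.6% of 14915 genes, 13.1% higher and 15.5% lower. With all treated libraries against PBS they were again these 4, beside 32.2% of 15070 genes, 15.2% higher and 17.1% lower. The 3 comparisons share the PBS libraries. Treated and PBS ranges did not overlap for 8 of the 10 genes, 5 above (TGFB2, TGFB3, TGFBR1, SMAD7 and CILP) and 3 below (TGFB1, INHBA and TGFBI), beside 50.5% of all genes. The median log2 fold change of the 10 genes was 0.23, compared with -0.014 over all genes.

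The question left untouched by the selection was whether the conjugates differed from each other. None of the 10 genes was called between P-DXd-titled and T-DXd-titled libraries by edgeR's quasi-likelihood test, and DESeq2 called 0 of them. Over all genes 0.0273% were called (4 of 14653, with 540 at an unadjusted p under 0.05 and 24 called by DESeq2). The smallest unadjusted p among the 10 was that of TGFBR1 (0.0812; edgeR, adjusted p 0.9998), with a log2 fold change of P-DXd-titled over T-DXd-titled of -0.17 (95% interval -0.36 to 0.025). For CILP it was -0.28 (95% interval -0.67 to 0.12), for TGFBI 0.064 (-0.19 to 0.32) and for TGFB3 0.15 (-0.12 to 0.42). The widest interval above 0 was that of SMAD7 (-0.16 to 0.53), and none of the 10 intervals left out 0. The ranges of P-DXd-titled and T-DXd-titled libraries overlapped for all 10 genes, whereas 8.08% of all genes had ranges apart. These intervals bound the difference and do not show that the conjugates acted alike.

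**Figure D4:**
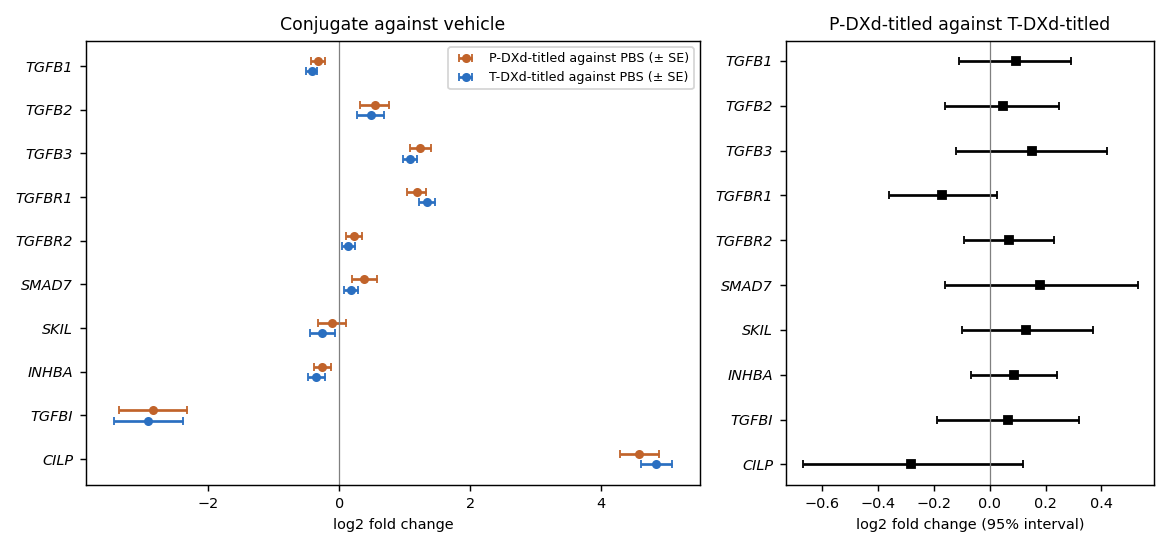
Left, log2 fold change of P-DXd-titled and T-DXd-titled against PBS for the 10 genes (points, with bars for 1 SE); right, log2 fold change of P-DXd-titled against T-DXd-titled with its 95% interval, on a narrower axis. TGFBI and CILP lie farthest from 0 against PBS (-2.88 and 4.71 over all treated libraries), and all 10 intervals between the conjugates include 0.

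Per kilobase of exon, INHBA was the highest of the 10 genes in each group, at a mean of 80.5 CPM per kilobase in PBS, 66.7 under the P-DXd title and 62.9 under the T-DXd title. In PBS it was followed by TGFBR2 (38.5), TGFB2 (34.7), TGFBI (27.4), TGFB1 (27.3), SKIL (16.9), TGFBR1 (4.97), TGFB3 (3.86), SMAD7 (2.77) and CILP (0.0916). Neighbours from TGFBR2 to TGFB1 overlapped in their ranges. In P-DXd-titled libraries the order was TGFB2 (49.9), TGFBR2 (44.6), TGFB1 (21.7), SKIL (15.5), TGFBR1 (11.2), TGFB3 (9.04), TGFBI (3.797), SMAD7 (3.57) and CILP (2.17), and TGFB2 overlapped TGFBR2, TGFBR1 overlapped TGFB3 and TGFBI overlapped SMAD7. TGFBI was thus 4th of 10 by its PBS mean and 8th in both treated groups. Its PBS mean rested on PBS replicate 1, without which it was 14.8 CPM per kilobase and 6th, below SKIL (19.4), and with longest transcripts it was 3rd in PBS. CILP was the lowest in each group. The order in T-DXd-titled libraries was that of P-DXd-titled libraries, with no neighbours overlapping. With the length of the longest transcript instead, TGFBR2 ranked above TGFB2 in both treated groups.

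Genes whose log2 CPM followed a member most closely over the 9 libraries were found by Pearson's r, as a description only, since treated and PBS libraries lay apart for most of them. For CILP these were THBS4 (r = 0.995), NEDD9 (0.994) and TRIM8 (0.994), and for TGFB3 CHDH (0.991), SMARCA2 (0.990) and HDAC5 (0.988). For TGFBR1 they were GLUL (0.994), SNX9 (0.993) and TMEM167B (0.993), and for TGFBI METAP1, SRSF3 and PDHA1 (each 0.997).

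The other genes of the pathway were followed with a list of 161 genes by role, of which 152 were listed and 148 tested in treated libraries against PBS. Of these, 43 rose and 28 fell, beside 15.2% and 17.1% of all genes, and the median log2 fold change was 0.10 compared with -0.014. This list too was drawn up with earlier results of these data known, and genes named from it were mostly picked by their differences from PBS. Counts and adjusted p-values against PBS thus give their place in the fit across all genes and are no evidence about the list. In P-DXd-titled libraries 30 rose and 25 fell, and in T-DXd-titled libraries 40 rose and 25 fell. The P-DXd-titled count of 55 dropped to 36 when replicate 2 was left out and to 30 when replicate 3 was. None of 145 was called between the conjugates by edgeR (12 at an unadjusted p under 0.05); DESeq2 called POSTN, which was lower in P-DXd-titled libraries (log2 -0.63, DESeq2 adjusted p 0.0132), and leaving out P-DXd-titled replicate 2 called MMP9 (log2 0.67, edgeR adjusted p 0.0481).

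Among 19 other ligand genes, 5 rose and 5 fell. GDF15, a stress-responsive ligand of the family, rose from 20.8 ± 9.13 CPM in PBS (SD, n = 3) to 178.4 ± 24.6 CPM in treated libraries (n = 6; log2 3.10, SE 0.29, edgeR adjusted p 1.62e-05). BMP3, known as an antagonist within the BMP family, rose from 0.644 ± 0.46 to 6.96 ± 1.62 CPM (log2 3.41, edgeR adjusted p 0.000312). INHBB, the beta subunit of activin B, rose from 98.3 ± 72.0 to 463.5 ± 71.0 CPM (log2 2.24, edgeR adjusted p 0.00534), with PBS replicate 1 at 15.6 CPM. INHBB was not called in P-DXd-titled libraries alone (edgeR adjusted p 0.0522). INHA, the alpha subunit that turns activins into inhibins, fell at a low level (log2 -1.60, edgeR adjusted p 0.0025). INHA was at 1.88 ± 0.894 CPM in PBS and 0.620 ± 0.175 CPM in treated libraries. PBS replicate 1 (0.943 CPM) was close to the highest treated library (0.861 CPM). The call of INHA was lost under 5 of 12 alternatives in P-DXd-titled and 6 of 12 in T-DXd-titled libraries. INHBB thus rose where its relative INHBA was lower in every treated library.

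Of 20 genes of latency and activation, 8 rose and 3 fell. MMP2, a gelatinase that can release latent TGF-beta, rose from 20.4 ± 11.3 to 70.4 ± 14.5 CPM (log2 1.79, edgeR adjusted p 0.000717). The related MMP9 fell from 139.9 ± 99.7 to 35.9 ± 15.5 CPM (log2 -1.96, edgeR adjusted p 0.00446), with overlapping ranges and -1.36 without PBS replicate 3. MMP9 was not called in P-DXd-titled libraries alone (edgeR adjusted p 0.0785). The integrin subunits ITGB5 (log2 1.19) and ITGB3 (log2 1.15), which pair with the alpha V subunit to bind latent complexes, rose. Among other partners of alpha V on this list, ITGB8 rose (log2 0.69, edgeR adjusted p 0.00279) and ITGB6 fell (log2 -0.94, edgeR adjusted p 0.00319). ITGB1 (log2 -0.10) and the alpha V gene ITGAV itself (log2 -0.28) were not called. ITGB8, ITGB6, ITGB1 and ITGAV are named after their values were seen.

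Of 16 other receptors and coreceptors, 7 rose and 9 were not called, with a median log2 of 0.59. BAMBI, a pseudoreceptor that lacks a kinase and dampens TGF-beta signaling, rose from 4.71 ± 1.85 to 18.3 ± 1.83 CPM (log2 1.96, edgeR adjusted p 7.38e-05). RGMA, a BMP coreceptor, rose from 0.732 ± 0.161 to 3.50 ± 0.624 CPM (log2 2.26, edgeR adjusted p 2.9e-05), as did NEO1, its receptor neogenin (log2 1.88), and the BMP type I receptor BMPR1B (log2 1.25).

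Among 7 SMAD genes other than SMAD7, SMAD6 (log2 1.23, edgeR adjusted p 0.00168) and SMAD1 (log2 0.73, edgeR adjusted p 0.00468) rose and 5 were not called. SMAD6 is the inhibitory SMAD of the BMP branch and SMAD1 one of its signal transducers, and the call of SMAD1 was lost without PBS replicate 1 (log2 0.52). Of 22 intracellular regulators 1 rose, TGIF1 (log2 0.72, edgeR adjusted p 5.71e-05), a corepressor of SMAD2 and SMAD3.

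Secreted antagonists were divided, with 7 of 15 higher and 2 lower and a median log2 of 1.03. ASPN, asporin, the proteoglycan the study is about and a known TGF-beta binder, rose from 9.60 ± 2.15 to 33.1 ± 3.88 CPM (log2 1.79, edgeR adjusted p 1.09e-05). By in situ hybridization, the study found that treated xenografts varied in Aspn-positive stromal cells and that some had fewer. That is an unlike measure, of mouse Aspn in stroma. The CPM here are of reads counted on the human gene in bulk tumor, with mouse reads not set apart. FMOD, fibromodulin, rose at a low level (0.637 ± 0.475 to 1.84 ± 0.645 CPM, log2 1.52, edgeR adjusted p 0.0203), with overlapping ranges and its call lost without PBS replicate 2 (log2 1.26, edgeR adjusted p 0.0801; 2.32 without PBS replicate 3). FST, follistatin, which traps activin, fell from 217.3 ± 140.8 to 53.2 ± 4.92 CPM (log2 -2.03, edgeR adjusted p 0.000163; -1.35 without PBS replicate 1). GREM1, a BMP antagonist, fell at a low level (log2 -1.37, edgeR adjusted p 0.00888), with overlapping ranges. In P-DXd-titled libraries alone neither FMOD (edgeR adjusted p 0.115) nor GREM1 (edgeR adjusted p 0.0707) was called.

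Genes known as induced by TGF-beta went both ways, with 11 of 42 higher, 15 lower and a median log2 of 0.043. The 4 called genes with the largest differences were all lower, as was TGFBI. IL11, an interleukin, fell from 51.0 ± 16.7 to 7.46 ± 1.13 CPM (log2 -2.77, SE 0.18, edgeR adjusted p 3.7e-06), as did PTHLH, the parathyroid hormone-related peptide gene (log2 -2.25, and -1.50 without PBS replicate 1), and SNAI1, a repressor of epithelial genes (log2 -2.18). Those that rose included CCN2 (log2 1.68), TIMP3 (1.90), COL3A1 (1.37) and POSTN (1.58), named after their values were seen. The ranges of COL3A1 overlapped, with 152.8 CPM in P-DXd-titled replicate 1 and 179.7 CPM in PBS replicate 1. COL3A1 and POSTN are also on the fibroblast list, which shares 6 genes with the pathway list and whose sums are given above. Other collagen genes on both lists differed in direction. Mean levels in PBS and treated libraries were 975.2 and 1081 CPM for COL1A1, 317.9 and 570 CPM for COL1A2, and 114.2 and 85.8 CPM for COL5A1.

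Of 8 genes known as repressed by TGF-beta or induced by BMP signaling, 2 rose and 3 fell. ID2 rose from 6.39 ± 0.364 to 19.6 ± 2.3 CPM (log2 1.62, edgeR adjusted p 4.39e-06), whereas ID1, a related target of BMP signaling, fell from 82.0 ± 6.39 to 45.4 ± 9.08 CPM (log2 -0.85, edgeR adjusted p 0.00064). MYC (log2 -1.06) and CDC25A (log2 -1.78), both known as repressed by TGF-beta, fell.

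**Figure D5:**
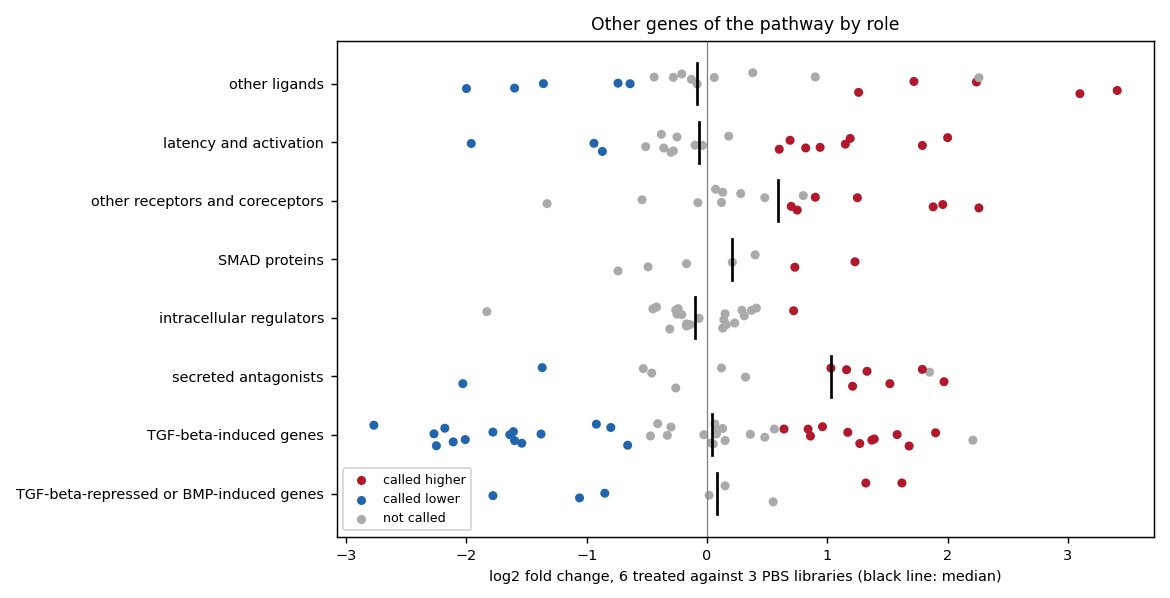
Log2 fold change of each tested gene of the pathway list other than the 10 members, in 6 treated against 3 PBS libraries (points; red called higher, blue called lower, grey not called; black line, median), by role. Other receptors and secreted antagonists have medians of 0.59 and 1.03, and TGF-beta-induced genes spread on both sides of 0 with a median of 0.043.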

How the data were processed

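RNA-Seq was performed by the authors on bulk PC3 xenografts; per the study's methods, Cutadapt was used for trimming, STAR for alignment and featureCounts for gene-level counting. The deposited tables hold raw read counts per protein-coding gene with at least 5 counts in at least 2 libraries. The use of strand and the removal of mouse reads are not stated. The methods name GRCh38, but only 44 of 15685 gene identifiers found in GENCODE v44 had equal coordinates, so the tables' build is unnamed and only RefSeq promoter coordinates are given. Gene lengths come from GENCODE v44. PBS counts were identical in both tables for 16008 shared genes, and 0 columns of values were left unused. Replicates differed by a chi-square statistic of 17.2 to 388 per gene, so none was a duplicate.

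Counts were tested with edgeR 4.0.16 in R 4.3.3 (TMM, filterByExpr, two-sided quasi-likelihood F test, Benjamini-Hochberg over all genes tested), each comparison on the libraries compared. The study used DESeq2 with the same thresholds. CPM is TMM-scaled over 9 libraries, and SE is the log2 fold change over the root of F. No source states that libraries came from separate cultures of cells, and p-values measure the spread between libraries, each of which has its own animal code. Groups followed titles. The members and all lists were chosen with earlier results of these data known. Named pathway genes were up to 4 per role with the largest absolute difference among genes called in treated libraries with a mean of at least 100 counts, ASPN, and, for each member, the 3 most correlated genes; some genes of these lists are not reported here. Alternatives were DESeq2 1.42.0, RLE size factors, no filter, a minimum of 10 counts in each library, no fold minimum, all 9 libraries in 1 fit, a replicate block on the animal code digit, longest transcripts and leaving out each library; levels per kilobase without PBS replicate 1 were added after seeing the data. The pipeline was tested on simulated data.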

Additional observations from a re-analysis of the deposited data

Results flagged for a closer look

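Of the 10 genes, 2 had a treated library that stood apart from the other 5 treated libraries by Dixon's criterion, which chance meets in about 1 in 20 groups. TGFBR2 was at 331.2 CPM in P-DXd-titled replicate 3, against 287.9 to 297.4 CPM in the other 5. SMAD7 was at 18.04 CPM in P-DXd-titled replicate 2, against 11.12 to 13.05 CPM in the other 5; in the same library the summed skeletal muscle markers were at 4582 CPM, and their part in its SMAD7 level was not tested.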

How the results depend on the processing

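The calls of TGFB3, TGFBR1, TGFBI and CILP against PBS, contrasts on which these genes were selected and which therefore lend them no support, did not change under all 12 alternatives to each comparison of 1 conjugate with PBS and all 14 alternatives to the comparison of treated libraries with PBS. The number of genes called over all genes ranged over leave-one-out fits from 1857 to 3936 in P-DXd-titled against PBS (3742 with every library) and from 2820 to 4641 in T-DXd-titled against PBS (4263), and from 0 to 8 between the conjugates (4). These extremes arose on leaving out, against PBS, the third library of each treated group (1857 and 2820) and, between the conjugates, the first T-DXd-titled library (0) or the third P-DXd-titled library (8). For the pathway list these ranges were 30 to 63 in P-DXd-titled against PBS (55) and 0 to 1 between the conjugates (0). With no fold minimum 8398 genes were called in treated libraries against PBS (4855 otherwise). Between the conjugates DESeq2 called 24 genes, 1 of them on the pathway list, and all 9 libraries in 1 fit called 0. With the replicate block on the animal code digit, 3519, 3398, 4630 and 3 genes were called in the 4 comparisons, and 53, 58, 69 and 0 of the pathway list. The meaning of that digit is not given, so libraries share only a number. Where a count moved, the cause was not tested. Levels per kilobase depend on the exon length used. Depth was lowest for CILP in PBS, at 44 to 77 counts per library.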
